A study of Mus musculus with 6 samples.

Results

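A group of 10 receptor and signalling genes of myeloid cells was followed in RNA from leukaemia initiating cells (LICs), the leukaemia cells that can start the disease again when transplanted. It comprised 4 Fc gamma receptor genes (Fcgr1, Fcgr2b, Fcgr3, Fcgr4), the adaptor genes Fcer1g and Tyrobp, 3 CD300 genes (Cd300a, Cd300lb, Cd300lf) and Pirb. They were chosen by name and by what they encode, with earlier results of these data known. All 10 were among the 23337 genes of the count table, Pirb under the symbol Lilrb3. Mouse LICs of adult origin (3 libraries, replicates 1, 2 and 4) were compared with mouse LICs of neonatal origin (3 libraries, replicates 4, 7 and 8). Every library was labelled as sorted LICs, and the material they came from as haematopoietic stem and progenitor cells. The labels give neither the strain, the leukaemia driver, the sort gate nor the exact ages, and they do not say that replicates came from separate mice, so the p-values below rest on the spread among these libraries alone, and that spread may be technical. The comparison asks which transcripts differ between adult and neonatal LICs.

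Fc gamma receptors bind the constant part of IgG antibodies and let phagocytes take up or kill antibody-coated targets. The activating receptors carry no signalling motif of their own and pair with the chain encoded by Fcer1g, whose immunoreceptor tyrosine-based activation motif (ITAM) is phosphorylated by SRC kinases and then recruits the kinase SYK. Tyrobp encodes DAP12, a similar ITAM chain that serves other myeloid receptors, among them CD300 and TREM family members. Inhibitory receptors such as FCGR2B, CD300A, CD300LF and PIRB instead carry immunoreceptor tyrosine-based inhibition motifs (ITIMs) that recruit the phosphatases SHP-1, SHP-2 or SHIP-1. These genes are typical of monocytes, macrophages and granulocytes, and several are also used by granulocyte-monocyte progenitors.

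The coding sequence divided the genes along these lines, which is why the motif-coding stretches are shown here. They were read from GENCODE M21 transcripts (GRCm38) and are given 5′ to 3′ with the tyrosine codons in capitals. A search of the translated tails for an ITAM, a pair of tyrosines each followed at the third place by leucine or isoleucine, found 1 in Fcer1g, which encodes 86 residues, and 1 in Tyrobp, which encodes 114 residues.
Fcer1g ITAM: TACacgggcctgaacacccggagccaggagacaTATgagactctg
Tyrobp ITAM: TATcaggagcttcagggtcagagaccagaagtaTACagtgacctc

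The same search for an ITIM, a tyrosine with an aliphatic residue or serine before it and an aliphatic residue after it, found 1 in Fcgr2b, 2 in Cd300a, 2 in Cd300lf and 3 in Pirb. Neither motif was found in the tails encoded by Fcgr1, Fcgr3, Fcgr4 and Cd300lb. The ITIM-coding stretches, lettered in the order in which they occur in a gene, were these.
Fcgr2b ITIM: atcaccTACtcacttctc
Cd300a ITIM A: gtggaaTATagcacattg
Cd300a ITIM B: cttcacTATtcatccgtg
Cd300lf ITIM A: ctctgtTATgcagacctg
Cd300lf ITIM B: gtttcaTATgccgctctg
Pirb ITIM A: agcctaTATgcttcagtg
Pirb ITIM B: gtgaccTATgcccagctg
Pirb ITIM C: agtgtaTATgctactctg

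Depth was even except in 1 library. Adult totals were 60113466 to 65183188 counts, neonatal replicates 7 and 8 held 64712241 and 66132051 counts, and neonatal replicate 4 held 3932833 counts. Levels are given as CPM, read counts scaled to a common library size by TMM. Wherever 3 values of a group follow each other, they are replicates 1, 2 and 4 of the adult libraries or replicates 4, 7 and 8 of the neonatal libraries. A count of 0 allows up to 3 counts, which is 0.897 CPM in neonatal replicate 4 and at most 0.0503 CPM elsewhere (counting error only). On log2 CPM, neonatal replicate 4 correlated with neonatal replicates 7 and 8 at 0.865 to 0.880 and with the adult libraries at 0.857 to 0.875 (Pearson's r across genes, which are not independent replicates), whereas neonatal replicates 7 and 8 correlated at 0.954. Results are therefore given with and without it. The pan-leukocyte gene Ptprc was present in every library (273, 263 and 323 CPM in adult against 144, 271 and 181 CPM in neonatal LICs). Ddx3y, a Y-linked gene, was at 98.8 to 154 CPM in adult libraries and at most 0.0148 CPM in neonatal libraries, and Xist, made by the inactive X, was at 0.610 to 0.920 CPM in adult and 51.7 to 186 CPM in neonatal libraries. Age of origin and sex therefore cannot be told apart in any comparison below.

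Set against each other per length of transcript, the adaptors stood above the receptors in every library. Tyrobp averaged 1503 CPM per kilobase in adult and 1632 in neonatal LICs, and Fcer1g averaged 954 and 956 in the same order of groups. In every library Tyrobp stood at or above the percentile 99.7 of tested genes by CPM per kilobase. Fcgr3 came next with 364 CPM per kilobase in adult and 402 in neonatal LICs, followed by Fcgr2b with 109 and 135. The CD300 genes, Fcgr4 and Pirb formed a lower tier. In adult LICs this tier held Fcgr4 at 38.8, Cd300lb at 36.2, Cd300lf at 23.8, Cd300a at 23.5 and Pirb at 11.3 CPM per kilobase, and neighbours in this order overlapped between libraries. In neonatal LICs the order was Cd300lb at 28.3, Cd300a at 12.7, Fcgr4 at 10.5, Pirb at 9.77 and Cd300lf at 2.79 CPM per kilobase, with overlap between neighbours except that Cd300lb lay above Cd300a in every library. Fcgr1 was lowest in both groups, at 0.266 CPM per kilobase in adult LICs and at 0 counts in neonatal LICs.

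**Figure D1:**
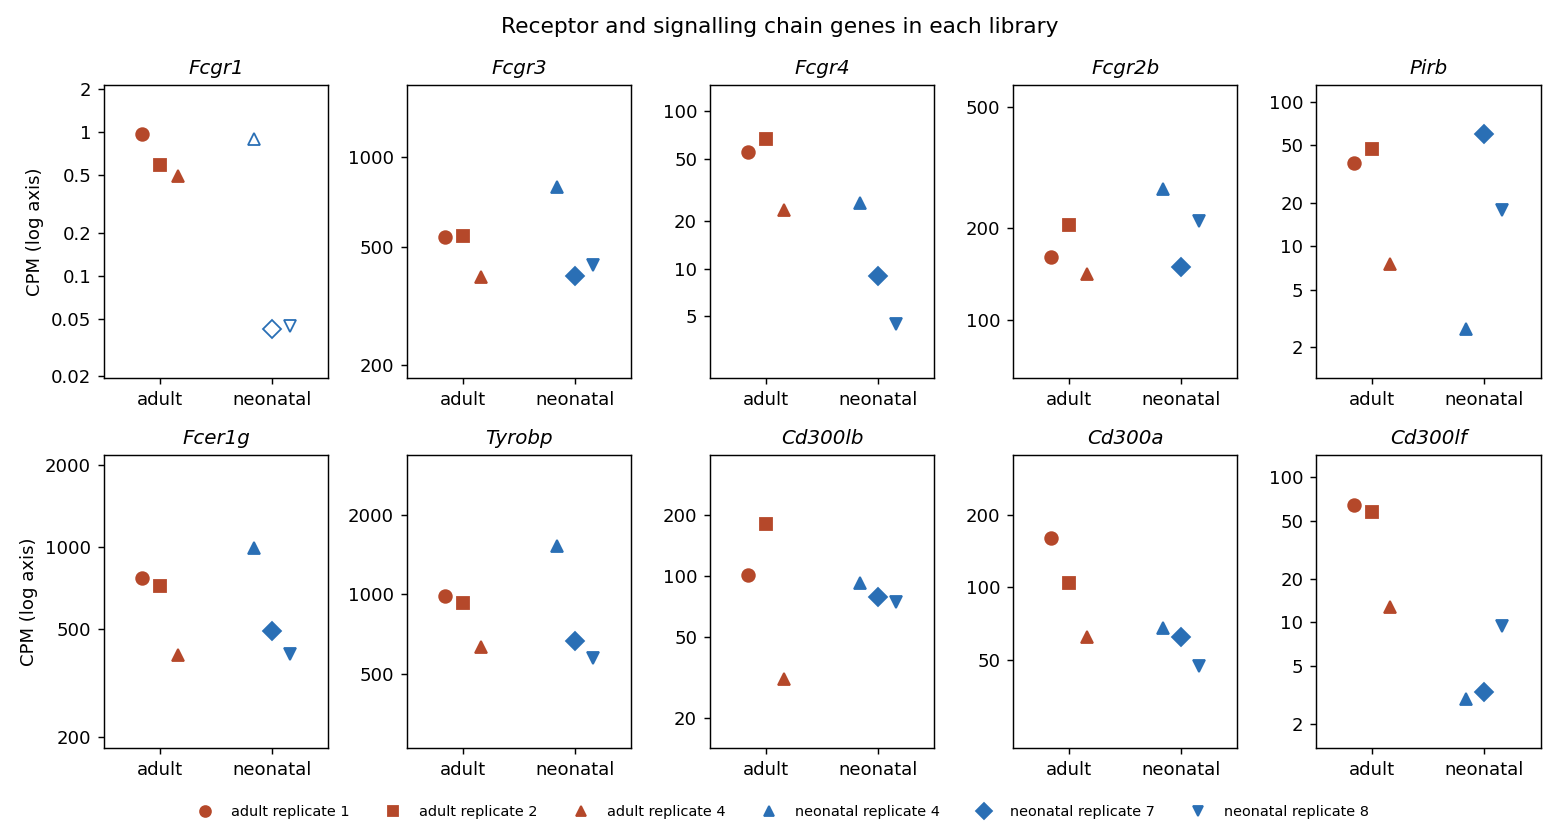
Level of each gene in each library, in CPM on a log axis, with adult libraries on the left and neonatal libraries on the right of each panel. Open symbols mark libraries with 0 counts, drawn at the 3-count limit. The adult libraries lie above all neonatal libraries for Cd300lf, at 12.7 CPM or more against 9.48 CPM or less, while the groups overlap for the adaptors, Fcgr2b and Fcgr3.

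For the adaptors no difference between the groups exceeded the spread between libraries. Fcer1g (chr1:171229572-171234349, minus strand, mm10), the Fc receptor gamma chain, was at 766, 718 and 399 CPM in the adult libraries, against 993, 491 and 403 CPM in the neonatal ones. Adult replicate 4 and neonatal replicate 8 were almost level at the low end, and neonatal replicate 4 was the highest of the 6. Tyrobp (chr7:30413788-30417579, plus strand) was at 989, 931 and 633 CPM in adult LICs, against 1524, 670 and 578 CPM in neonatal LICs. All 3 adult libraries lay inside the neonatal range. The log2 fold change, adult over neonatal, was -0.0016 ± 0.44 for Fcer1g (SE, adjusted p = 0.9995) and -0.12 ± 0.44 for Tyrobp (adjusted p = 0.953), from edgeR's quasi-likelihood test adjusted over 13272 genes. Without neonatal replicate 4 both values were positive, 0.48 ± 0.31 for Fcer1g (adjusted p = 0.339) and 0.44 ± 0.24 for Tyrobp (adjusted p = 0.271).

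Within a library the adaptors kept a narrow ratio to each other. Per kilobase, Fcer1g was at 0.666, 0.664 and 0.542 of Tyrobp in adult replicates 1, 2 and 4, and at 0.561, 0.631 and 0.599 of Tyrobp in neonatal replicates 4, 7 and 8. The groups overlapped, with a difference of 0.06 on the log2 scale (exact two-sided permutation test, p = 0.6; adjusted over 3 ratios, 0.6). With 3 libraries against 3 this test cannot give a p below 0.1. Of the other 9 genes, Tyrobp had the profile nearest to that of Fcer1g, with a root mean square difference of 0.114 in centred log2 CPM over 6 libraries, as a description. Fcgr3 came near Tyrobp as well, at 0.169. Among all tested genes the nearest profiles to Fcer1g were those of Tyrobp and of the low-level predicted genes Gm4340 (0.0926) and Gm8989 (0.129), and to Tyrobp those of Pus3 (0.0782), Zbtb26 (0.0842) and Fcer1g.

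Among the activating Fc gamma receptors, Fcgr4 and Fcgr1 had higher mean levels in adult LICs, past the test in some fits, and Fcgr3 passed in none. The differences between these receptors were not tested. Fcgr3 (chr1:171051169-171059403, minus strand), the widely used low-affinity activating receptor, was at 538, 542 and 397 CPM in adult LICs, against 797, 399 and 435 CPM in neonatal LICs. Adult replicate 4 and neonatal replicate 7 shared the low end. edgeR gave it a log2 fold change of -0.14 ± 0.36 (adjusted p = 0.927), and 0.23 ± 0.20 without neonatal replicate 4 (adjusted p = 0.495).

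Fcgr4 (chr1:171018926-171029761, plus strand) encodes the mouse activating receptor for IgG2 subclasses on monocytes, macrophages and neutrophils. It was at 55.3, 66.5 and 23.8 CPM in the adult libraries, against 26.0, 8.97 and 4.46 CPM in the neonatal ones. The groups met only at adult replicate 4 and neonatal replicate 4, whose 87 counts give an exact Poisson 95% interval of 20.8 to 32.1 CPM. Group means were 48.5 ± 22.2 CPM (adult) and 13.1 ± 11.4 CPM (neonatal, SD, n = 3 each), a ratio of 3.69. edgeR gave it a log2 fold change of 1.94 ± 0.70 on 6 libraries (adjusted p = 0.332), and 2.84 ± 0.56 without neonatal replicate 4 (adjusted p = 0.0449), where the ratio of means was 7.23. Over all 15 alternative settings the log2 fold change ran between 1.51 and 2.85, all positive, with adjusted p between 2.27e-06 and 0.658, and 3 of them passed.

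Fcgr1 (chr3:96282909-96293969, minus strand), the high-affinity IgG receptor of monocytes and macrophages, was seen in adult LICs at a low level. It had 58, 40 and 32 counts in adult replicates 1, 2 and 4, or 0.972, 0.595 and 0.499 CPM, and 0 counts in each neonatal library. Neonatal replicates 7 and 8, as deep as the adult libraries, lay clearly below them, whereas at the depth of neonatal replicate 4 an adult level could have gone uncounted. With 3 counts over the pooled depth of the neonatal libraries as the limit (0.0212 CPM), the adult mean of 0.689 CPM was at least 32.5-fold higher. This bound rests almost wholly on neonatal replicates 7 and 8, not on neonatal replicate 4, and covers counting error only. The adjusted p was 0.140 in edgeR on 6 libraries, 0.0499 without neonatal replicate 4, just under the threshold, and 0.00951 in DESeq2, and it ran between 0.00144 and 0.416 over 13 alternatives, of which 4 passed.

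The inhibitory counterpart of these receptors passed no test. Fcgr2b (chr1:170960559-170976071, minus strand) was at 160, 204 and 141 CPM in adult LICs, against 268, 149 and 210 CPM in neonatal LICs. The groups overlapped, with means of 169 ± 32.4 CPM (adult) and 209 ± 59.4 CPM (neonatal, SD, n = 3 each) and a log2 fold change of -0.31 ± 0.33 (edgeR, adjusted p = 0.793). The balance of inhibitory to activating low-affinity receptor, Fcgr2b over Fcgr3 per kilobase, was 0.260, 0.330 and 0.312 in adult replicates 1, 2 and 4, and 0.294, 0.326 and 0.423 in neonatal replicates 4, 7 and 8. The highest was neonatal replicate 8 and the lowest adult replicate 1. The difference was -0.20 on the log2 scale (exact two-sided permutation test, p = 0.5; adjusted over 3 ratios, 0.6). Of the 75-base windows of Fcgr3 transcripts, the read length of these libraries, 5.78% also occurred in Fcgr2b, so a small part of their reads could not be assigned to either. For Fcgr2b transcripts, 8.26% of windows also occurred in other genes, among them Cplx2, Gm47409, Fcgr3 and Rab3c.

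Promoter sequence is shown for the 3 genes with the largest log2 fold changes and for Fcgr3, whose groups overlapped. The windows run from 250 bases before to 50 bases after the annotated start (RefSeq, GRCm38.p6). Capitals mark 2 motifs searched on both strands, the PU.1 core GAGGAA, which reads TTCCTC on the other strand, and the STAT motif TTCNNNGAA. Of the 10 genes 9 had a window in the table, and 6 of these 9 held the PU.1 core, against 28.3% of 32851 mouse windows of the same length. The STAT motif was in 1 of the 9, Fcgr1, against 8.3% of windows. No match of one motif overlapped a match of the other.
Fcgr1 promoter, chr3:96293920-96294219, minus strand: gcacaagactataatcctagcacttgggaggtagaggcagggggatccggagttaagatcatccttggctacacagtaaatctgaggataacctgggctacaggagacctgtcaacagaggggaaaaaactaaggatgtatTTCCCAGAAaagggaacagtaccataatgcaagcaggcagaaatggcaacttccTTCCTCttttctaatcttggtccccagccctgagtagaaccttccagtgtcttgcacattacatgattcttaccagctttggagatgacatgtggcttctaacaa
Fcgr4 promoter, chr1:171018676-171018975, plus strand: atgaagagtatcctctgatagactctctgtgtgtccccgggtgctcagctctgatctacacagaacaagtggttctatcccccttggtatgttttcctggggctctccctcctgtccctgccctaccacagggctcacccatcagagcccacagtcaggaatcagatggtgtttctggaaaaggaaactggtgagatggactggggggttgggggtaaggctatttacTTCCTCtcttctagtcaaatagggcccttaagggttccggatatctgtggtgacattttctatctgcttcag
Cd300lf promoter, chr11:115133943-115134242, minus strand: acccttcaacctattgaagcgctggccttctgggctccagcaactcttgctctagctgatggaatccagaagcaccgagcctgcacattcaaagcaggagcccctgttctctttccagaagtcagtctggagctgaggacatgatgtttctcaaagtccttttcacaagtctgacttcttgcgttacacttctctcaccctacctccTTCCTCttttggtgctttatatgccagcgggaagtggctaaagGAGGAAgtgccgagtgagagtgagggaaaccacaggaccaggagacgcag
Fcgr3 promoter, chr1:171059354-171059653, minus strand: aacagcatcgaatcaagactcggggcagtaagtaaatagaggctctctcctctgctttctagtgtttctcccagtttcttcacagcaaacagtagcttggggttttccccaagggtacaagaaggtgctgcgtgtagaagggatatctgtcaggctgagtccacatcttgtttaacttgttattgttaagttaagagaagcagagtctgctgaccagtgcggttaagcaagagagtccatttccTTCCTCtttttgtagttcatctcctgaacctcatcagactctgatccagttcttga

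The PU.1 core was in the windows of Fcgr1, Fcgr3, Fcgr4, Cd300a, Cd300lf and Pirb, and not in those of Fcgr2b, Fcer1g and Cd300lb. These included genes whose groups overlapped, such as Fcgr3 and Pirb, and genes whose groups did not, Fcgr1 and Cd300lf. A match is a description of the sequence only.

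Of the 3 CD300 genes, Cd300lf had the largest ratio between the groups. Cd300lf (chr11:115116214-115133992, minus strand), a mainly inhibitory receptor for lipids of dying cells, was at 64.5, 57.5 and 12.7 CPM in the adult libraries, against 2.99, 3.31 and 9.48 CPM in the neonatal ones. Every adult library was above every neonatal library, by a small margin between adult replicate 4 and neonatal replicate 8. The 10 counts of neonatal replicate 4 give an exact Poisson 95% interval of 1.43 to 5.50 CPM. Group means were 44.9 ± 28.1 CPM (adult) and 5.26 ± 3.66 CPM (neonatal, SD, n = 3 each), a ratio of 8.53. edgeR gave it a log2 fold change of 3.05 ± 0.74 (adjusted p = 0.167), and 2.798 ± 0.84 without neonatal replicate 4 (adjusted p = 0.0929). DESeq2 gave an adjusted p of 0.00117 on the same 6 libraries and limma voom with quality weights 0.0494. Over 15 alternatives the log2 fold change ran between 2.68 and 3.82, all positive, with adjusted p between 0.000941 and 0.421, and 3 passed.

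Cd300a (chr11:114890041-114904651, plus strand), an inhibitory receptor for aminophospholipids, was at 161, 105 and 62.3 CPM in adult LICs, against 67.6, 62.1 and 47.3 CPM in neonatal LICs. Adult replicates 1 and 2 were above all neonatal libraries and adult replicate 4 was among them. edgeR gave it a log2 fold change of 0.89 ± 0.39 (adjusted p = 0.432). Cd300lb (chr11:114922781-114934386, minus strand), an activating receptor that pairs with DAP12, was at 101, 180 and 31.0 CPM in adult LICs, against 92.1, 78.7 and 74.1 CPM in neonatal LICs. The neonatal libraries lay close together inside the wide adult range. edgeR gave it a log2 fold change of 0.35 ± 0.56 (adjusted p = 0.867), and -0.30 without adult replicate 2.

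Within a library, Cd300lf had a larger share beside Cd300lb in adult LICs. Per kilobase, Cd300lf was at 0.972, 0.488 and 0.626 of Cd300lb in adult replicates 1, 2 and 4, and at 0.0496, 0.0644 and 0.196 of Cd300lb in neonatal replicates 4, 7 and 8. The groups did not overlap, and adult replicate 4, low in each gene by itself, was inside the adult range here. The log2 ratios averaged -0.58 ± 0.50 in adult and -3.55 ± 1.05 in neonatal LICs (SD, n = 3 each), a difference of 2.96. The exact two-sided permutation test gave p = 0.1, the smallest that 3 against 3 libraries allow, and 0.3 after adjustment over 3 ratios. Leaving out 1 library at a time gave differences between 2.57 and 3.56.

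**Figure D2:**
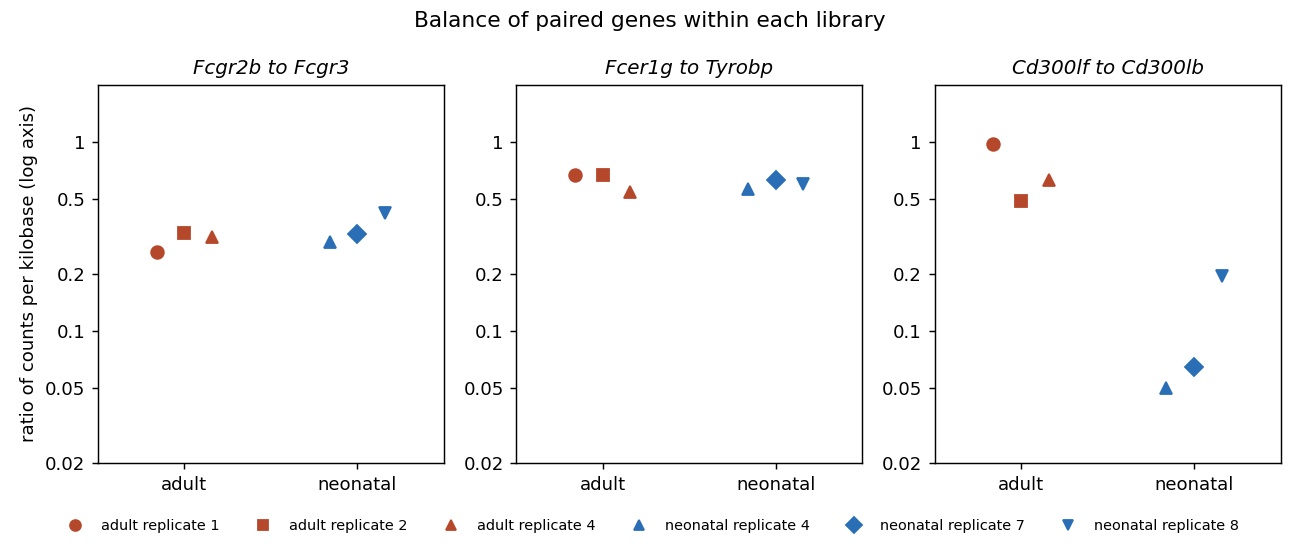
Ratio of CPM per kilobase of the genes named in each panel, per library on a log axis, adult left and neonatal right. The groups overlap for Fcgr2b over Fcgr3 and for Fcer1g over Tyrobp, while Cd300lf over Cd300lb is at 0.488 to 0.972 in adult and at 0.0496 to 0.196 in neonatal libraries.

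Pirb (chr7:3712505-3720382, minus strand), an inhibitory receptor for MHC class I, varied more within groups than between them. It was at 37.6, 47.1 and 7.53 CPM in the adult libraries, against 2.69, 59.5 and 17.8 CPM in the neonatal ones. The highest and the lowest library were both neonatal. edgeR gave it a log2 fold change of 0.18 ± 0.98 (adjusted p = 0.968), and -0.34 ± 0.81 without neonatal replicate 4 (adjusted p = 0.816). Of its 75-base windows 31.1% also occurred in other genes, mostly the paired receptors Pira2 and Lilra6 and related models, so its counts are uncertain.

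**Figure D3:**
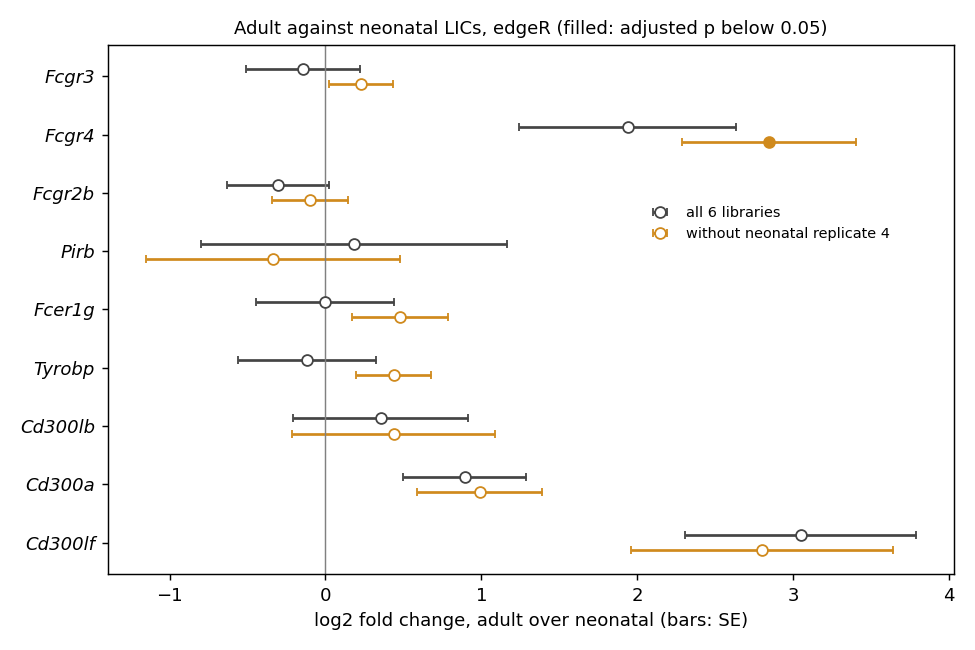
Log2 fold change, adult over neonatal, with its approximate SE from edgeR, on all 6 libraries (dark) and without neonatal replicate 4 (orange). Filled points had an adjusted p below 0.05. Fcgr1, with 0 counts in neonatal libraries, has no finite fold and is not drawn, and Fcgr4 at 2.84 without neonatal replicate 4 is the only filled point.

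Counted over the 10 genes, none passed edgeR on 6 libraries, where 0.0527% of the 13272 tested genes passed in either direction. The unadjusted p was under 0.05 for 3, Fcgr1, Fcgr4 and Cd300lf, against 11.9% of tested genes. DESeq2 called 2, Fcgr1 and Cd300lf, both higher in adult LICs, against 3.29% of tested genes called higher. Limma voom with quality weights called these and Fcgr4, 3 in all, against 3.91%. DESeq2 without neonatal replicate 4 called the same 3 genes, all higher in adult LICs, against 11.4% of 13856 genes called higher and 24% in either direction. Without neonatal replicate 4 edgeR called 2 higher in adult LICs, Fcgr1 and Fcgr4, and none lower, against 2.25% called higher and 3.72% called lower among 13856 genes. The adult libraries lay above all neonatal libraries for 2 of the 10 (12% of tested genes) and below for none (7.67%). They lay above neonatal replicates 7 and 8 for 4 of the 10 (25.6%). The log2 fold change was positive for 6 of the 10, with a median of 0.27, against 46.5% and a median of -0.05 over all tested genes. In bulk RNA, fewer cells of a type and less RNA per cell cannot be told apart.

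Within the adult group the 10 genes shared 1 feature of order. Adult replicate 4 was the lowest adult library for 10 of 10 genes, against 34.2% of tested genes. Neonatal replicate 4 was the highest neonatal library for 7 of the 10, against 38.6%, and the lowest for Cd300lf and Pirb, against 48.0%. The genes are not independent of each other, so these are descriptions of the libraries. The 10 genes summed to 2875, 2852 and 1708 CPM in the adult libraries, against 3772, 1922 and 1779 CPM in the neonatal ones.

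At the CD300 locus on chromosome 11, where Cd300a to Cd300lf span 243952 bases, 7 other CD300 genes lie between them, and 4 of these had enough counts to be tested, Cd300c, Cd300ld, Cd300c2 (listed as AF251705) and Cd300e. None of the 4 passed edgeR on 6 libraries. DESeq2 called Cd300c2 (adjusted p = 0.00261) and Cd300e (adjusted p = 0.0128) higher in adult LICs, against 3.29% of all tested genes called higher. Of the untested 3, Cd300ld4 and Cd300ld5 had 0 counts in every library, and Cd300lh was at 0.201, 0.104 and 0.0156 CPM in adult LICs, against 0, 0.0283 and 0 CPM in neonatal LICs, with overlap. Cd300c2, which encodes an activating receptor, was at 44.7, 36.4 and 20.1 CPM in adult LICs, against 11.1, 10.4 and 7.19 CPM in neonatal LICs. The groups did not overlap, and the log2 fold change was 1.83 ± 0.42 (edgeR, adjusted p = 0.156), or 1.93 ± 0.41 without neonatal replicate 4 (adjusted p = 0.0494). Cd300ld was at 118.5, 47.1 and 33.5 CPM in adult LICs, against 5.68, 24.5 and 21.0 CPM in neonatal LICs, again without overlap (log2 fold change 1.93 ± 0.66, edgeR, adjusted p = 0.303). Cd300e was at 5.80, 5.27 and 0.748 CPM in adult LICs, against 0, 0.382 and 0.0148 CPM in neonatal LICs (edgeR, adjusted p = 0.245). Cd300c was at 6.80, 1.98 and 0.966 CPM in adult LICs, against 0.299, 0.198 and 0.785 CPM in neonatal LICs (edgeR, adjusted p = 0.318). For each of the 4 tested genes every adult library exceeded every neonatal library, which held for 12% of all tested genes. For Cd300e, however, the adult replicate 4 level lay under the 3-count limit of neonatal replicate 4. For Cd300c, neonatal replicate 4 held only 1 count, and adult replicate 4 was little above neonatal replicate 8. Of the 75-base windows of Cd300lf transcripts 3.06% also occurred in Cd300ld.

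At the Fc receptor locus on chromosome 1, which spans 273791 bases from Fcgr2b to Fcer1g, levels followed no common pattern. Fcgr4 lies between Fcgr2b and Fcgr3, which stood at higher levels per kilobase. The groups overlapped for each of these genes, for Fcgr4 only at adult replicate 4 and neonatal replicate 4. The tested neighbours that are not Fc receptors were Sdhc, Tomm40l and Apoa2, whose groups overlapped, and Pcp4l1. Pcp4l1 was at 5.999, 10.5 and 11.8 CPM in adult LICs, against 31.4, 31.2 and 18.9 CPM in neonatal LICs (edgeR, adjusted p = 0.200, and DESeq2, adjusted p = 0.0107). For Pcp4l1 every adult library was below every neonatal library.

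**Figure D4:**
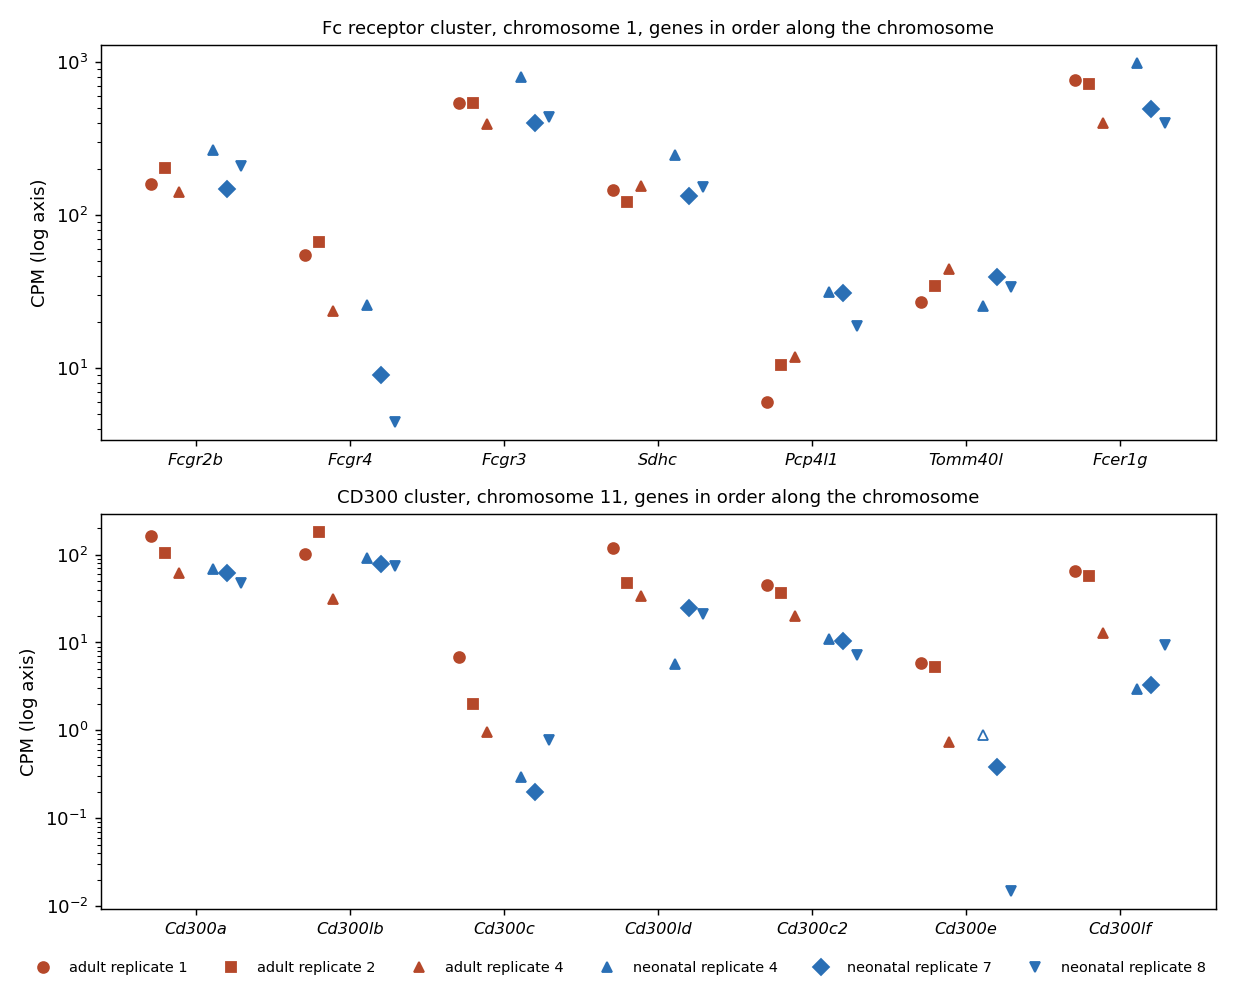
Level of each gene that reached 1 CPM in at least 1 library, at the Fc receptor locus of chromosome 1 (top) and the CD300 locus of chromosome 11 (bottom). Levels are in CPM on a log axis, in order along the chromosome, adult left and neonatal right for each gene. The tested gene Apoa2 stayed below this level and is not drawn. Open symbols mark 0 counts, drawn at the 3-count limit. At the CD300 locus Cd300c, Cd300ld, Cd300c2, Cd300e and Cd300lf have each adult library above each neonatal library by measured CPM.

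Receptors that signal through the same adaptors included several with higher adult levels. Of 28 partners of Fcer1g and Tyrobp in the file, 18 were tested on 6 libraries, 11 with a positive and 7 with a negative log2 fold change (median 0.52). None passed edgeR, 3 had an unadjusted p under 0.05, and DESeq2 called 3 higher and 0 lower. For this and each list below, the shares over all tested genes were 11.9% with an unadjusted edgeR p under 0.05. DESeq2 called 3.29% of all tested genes higher and 2.43% lower. Without neonatal replicate 4, 4 of 20 rose and 1 fell in adult LICs, against 2.25% and 3.72% of all tested genes. These shares apply to each list below as well. The gene that fell was Csf2rb, at 106, 105 and 108 CPM in adult LICs, against 41.2, 193 and 168 CPM in neonatal LICs. Its adjusted p in edgeR was 0.0478 without neonatal replicate 4, which lay below the adult libraries, and 0.863 with it. Pilrb1, a DAP12-coupled activating receptor, was at 48.7, 58.4 and 37.7 CPM in adult LICs, against 8.97, 8.23 and 8.42 CPM in neonatal LICs. The neonatal libraries were nearly level and all adult libraries were above them (log2 fold change 2.502 ± 0.33, edgeR, adjusted p = 0.105, and 2.52 ± 0.28, adjusted p = 0.0320, without neonatal replicate 4). Pilrb2, its close relative, was at 56.0, 72.5 and 43.6 CPM in adult LICs, against 16.7, 15.2 and 9.81 CPM in neonatal LICs (adjusted p = 0.0361 in edgeR without neonatal replicate 4, 0.140 with it). Clec5a, a DAP12-coupled lectin of myeloid cells, was at 19.2, 15.5 and 18.5 CPM in adult LICs, against 17.9, 2.05 and 0.889 CPM in neonatal LICs, with neonatal replicate 4 at the adult level (adjusted p = 0.0361 in edgeR without that replicate, 0.642 with it).

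The inhibitory receptors outside the 10 genes went both ways. Of 19 tested, 10 had a positive and 9 a negative log2 fold change (median 0.31). None passed edgeR on 6 libraries, 5 had an unadjusted p under 0.05 (11.9% of all tested genes), and DESeq2 called 3 higher (3.29%) and 1 lower (2.43%). Without neonatal replicate 4, 2 of 20 rose and 1 fell, against 2.25% and 3.72% of all tested genes. Pilra, the inhibitory counterpart of the Pilrb receptors, was at 91.0, 133 and 76.9 CPM in adult LICs, against 30.2, 31.0 and 32.1 CPM in neonatal LICs. The groups were well apart (log2 fold change 1.66 ± 0.28 without neonatal replicate 4, edgeR, adjusted p = 0.0389, and 0.140 with it). Lair1, an inhibitory collagen receptor, was at 119, 157 and 117 CPM in adult LICs, against 113, 36.1 and 20.5 CPM in neonatal LICs, neonatal replicate 4 again being close to the adult level (adjusted p = 0.0361 in edgeR without it, 0.486 with it). Sirpa, the inhibitory receptor for CD47, was at 138, 166 and 102 CPM in adult LICs, against 55.3, 276 and 332 CPM in neonatal LICs. Neonatal replicate 4 was the lowest library and the other neonatal libraries were the highest (log2 fold change -1.18 ± 0.24 without that replicate, edgeR, adjusted p = 0.0469).

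Among 14 further Fc receptor genes 10 were tested, 6 with a positive and 4 with a negative log2 fold change (median 0.53). None passed edgeR on 6 libraries, 3 had an unadjusted p under 0.05, and DESeq2 called 1 higher. Without neonatal replicate 4, 1 of 11 rose and 0 fell, against 2.25% and 3.72% of all tested genes. The gene that rose was Pigr, the epithelial transporter of polymeric immunoglobulin, at 6.13, 10.1 and 2.95 CPM in adult LICs, against 1.79, 0.198 and 0.252 CPM in neonatal LICs (edgeR, adjusted p = 0.0379). Of the CD300 genes beside the 10, 5 were tested, 4 positive and 1 negative (median 1.93), of which 4 had an unadjusted p under 0.05 in edgeR and DESeq2 called 2 higher. In edgeR without neonatal replicate 4 Cd300c2 alone passed.

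Downstream of the receptors the kinases, adaptors and phosphatases had no common direction. Of 28 tested genes of ITAM signalling, 16 had a positive and 12 a negative log2 fold change (median 0.10), and of 15 genes of ITIM and other negative signalling 7 were positive and 8 negative (median -0.01), with none past edgeR on 6 libraries in either list. The unadjusted p was under 0.05 for 3 and 2 genes of these lists, and DESeq2 called 2 higher and 1 lower in the first and 0 in the second. Syk, the kinase recruited by ITAMs, was at 113, 118 and 90.8 CPM in adult LICs, against 26.3, 113 and 206 CPM in neonatal LICs. The neonatal range enclosed the adult one (edgeR, adjusted p = 0.969). Without neonatal replicate 4, Plcg2, the phospholipase below SYK, fell in adult LICs (122, 140 and 107 CPM in adult against 33.8, 229 and 279 CPM in neonatal LICs, edgeR, adjusted p = 0.0416) and the adaptor gene Blnk rose (0.587, 0.491 and 0.857 CPM in adult LICs and 0 counts in each neonatal library, adjusted p = 0.0499). In the same fit Inpp5d, which encodes SHIP-1, the phosphatase that FCGR2B recruits, fell (115, 141 and 128 CPM in adult against 42.1, 215 and 222 CPM in neonatal LICs, adjusted p = 0.0499). For Plcg2 and Inpp5d neonatal replicate 4 lay on the other side of the adult libraries.

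**Figure D5:**
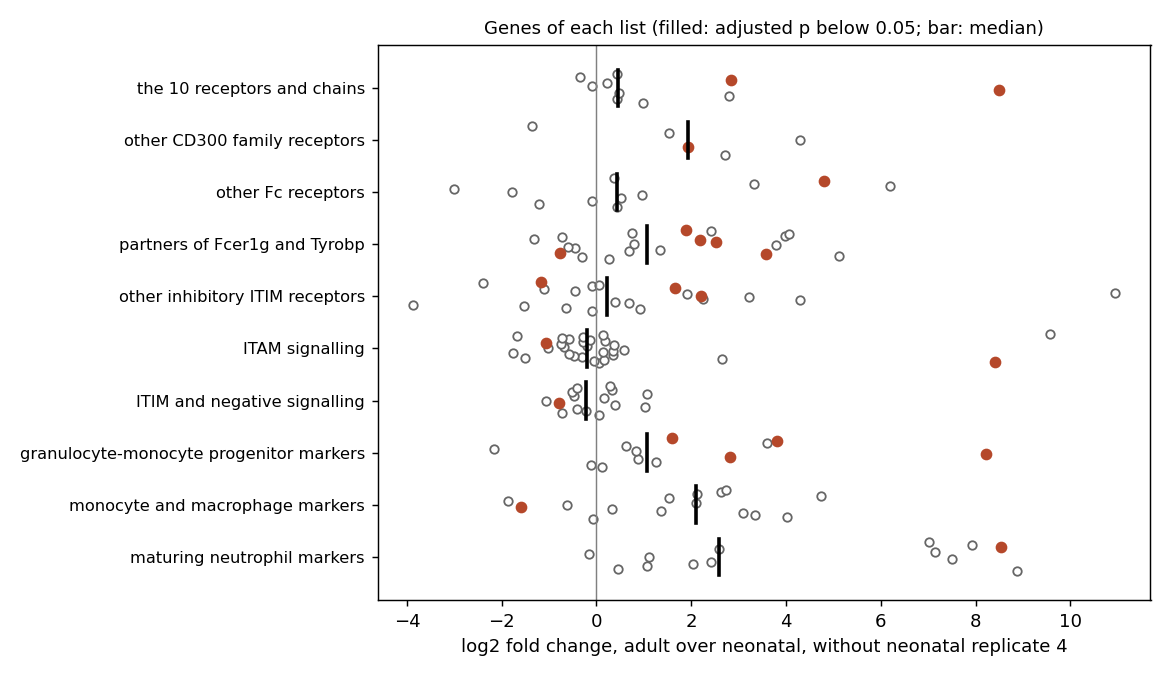
Log2 fold change, adult over neonatal, of each tested gene of the 10, of the related gene lists and cell type markers (edgeR, without neonatal replicate 4), with the median of each list as a bar and filled points for an adjusted p below 0.05. Genes with 0 counts in the neonatal libraries, such as Fcgr1 and Blnk, are drawn at fitted values that depend on the prior count. The medians are 0.46 for the 10 genes, 1.93 for the other CD300 genes and -0.20 for ITAM signalling.

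Levels of myeloid cell type markers are given here beside those of the receptors. The 13 maturing neutrophil markers in the table summed to 6282, 15240 and 1950 CPM in the adult libraries, against 326, 372 and 151 CPM in the neonatal ones. Adult replicate 4 was the lowest adult library here too, and none of the defining markers was at 0 in all libraries. All 13 had a positive log2 fold change on 6 libraries (median 2.85). None passed edgeR, 7 had an unadjusted p under 0.05, DESeq2 called 6 higher, and S100a8, a subunit of calprotectin, passed edgeR without neonatal replicate 4 (1351, 2780 and 447 CPM in adult against 49.3, 7.55 and 0.652 CPM in neonatal LICs, adjusted p = 0.0437). The 12 granulocyte-monocyte progenitor markers summed to 18360, 16680 and 28380 CPM in adult LICs, against 22090, 6502 and 4158 CPM in neonatal LICs. Neonatal replicate 4 was in the adult range. Without it 4 of 12 rose and 0 fell, against 2.25% and 3.72% of all tested genes. Those that rose included Ms4a3 (adjusted p = 0.00745), Elane (adjusted p = 0.0361) and Fcnb (adjusted p = 0.0446, all in edgeR). On 6 libraries none passed edgeR, 4 had an unadjusted p under 0.05, and DESeq2 called 2 higher and 1 lower. The lower was Irf8, a transcription factor of monocytes and dendritic cells, at 31.2, 129 and 66.6 CPM in adult LICs, against 339, 381 and 288 CPM in neonatal LICs (DESeq2, adjusted p = 0.00206), named after its values were seen. The 15 monocyte and macrophage markers summed to 752, 1011 and 288.5 CPM in adult LICs, against 1008, 840 and 520 CPM in neonatal LICs, overlapping, although 11 of 14 tested had a positive log2 fold change. None of these passed edgeR on 6 libraries, 6 had an unadjusted p under 0.05, and DESeq2 called 2 higher and 2 lower. The higher were Vcam1 (DESeq2, adjusted p = 0.0120) and Mertk (DESeq2, adjusted p = 0.0275), and the lower were Cd68 and Ly86. Vcam1 was at 426, 528 and 65.2 CPM in adult against 27.2, 88.5 and 13.6 CPM in neonatal LICs, with overlap. Mertk was at 3.17, 1.65 and 0.452 CPM in adult against 0, 0.127 and 0 CPM in neonatal LICs. Ly86 was at 22.5, 120 and 27.9 CPM in adult against 646, 234 and 180 CPM in neonatal LICs. Cd68, a lysosomal protein of macrophages, fell without neonatal replicate 4 (74.1, 92.8 and 70.7 CPM in adult against 222, 284 and 193 CPM in neonatal LICs, edgeR, adjusted p = 0.0361). The part of these cell type markers in the differences of Fcgr1, Fcgr4 and the CD300 genes was not tested.

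Many defining markers of lymphoid and erythroid cells were at 0. Ncr1 and Gzma of NK cells, Pax5 and Ms4a1 of B cells, Cd3e and Cd3g of T cells, Prss34 of basophils, and Hba-a1 of erythroid cells had 0 counts in all 6 libraries. The 9 NK cell markers summed to 0.596 to 1.42 CPM in adult and 0.637 to 2.09 CPM in neonatal libraries, and the 7 T cell markers to 2.15 to 11.1 CPM in adult and 2.69 to 7.96 CPM in neonatal libraries. The 8 B cell markers summed to 28.7 to 69.7 CPM in adult and 72.0 to 147 CPM in neonatal libraries, mostly Cd79b. The 8 dendritic cell markers summed to 31.5 to 97.9 CPM in adult and 394 to 1755 CPM in neonatal libraries. Most of the neonatal sums was Flt3, a receptor kinase that progenitors also express (6.59, 19.4 and 4.58 CPM in adult against 256, 568 and 1231 CPM in neonatal LICs, edgeR, adjusted p = 0.133, and 0.0348 without neonatal replicate 4), and most of the adult sums was Tcf4 (21.5, 72.7 and 52.9 CPM in adult against 137, 98.6 and 521 CPM in neonatal LICs). DESeq2 on 6 libraries called both lower in adult LICs. The 10 mast cell and basophil markers summed to 34.5 to 119.5 CPM in adult and 167 to 587 CPM in neonatal libraries. The largest part was Gata2 in neonatal replicates 7 and 8 (124 and 484 CPM) and Cpa3 in neonatal replicate 4 (129 CPM). Prss34, Fcer1a and Tpsb2 had 0 counts in every library. The groups overlapped for Mcpt8, and Ms4a2 was at 0.499 to 0.938 CPM in adult and 0 to 0.127 CPM in neonatal libraries. The higher neonatal sums were therefore not shared by the list as a whole. Erythroid markers (7) summed to 3.10 to 9.57 CPM in adult and 1.28 to 6.28 CPM in neonatal libraries, and megakaryocyte markers (7) to 1.20 to 15.1 CPM in adult and 1.20 to 48.8 CPM in neonatal libraries. In the lists with no gene past edgeR on 6 libraries or without neonatal replicate 4, the smallest edgeR p on 6 libraries belonged to Gata2 of mast cells (log2 fold change -4.88, edgeR, adjusted p = 0.239), Cd79b of B cells (-0.96, 0.447), Klrb1c of NK cells (0.16, 0.974), Cd5 of T cells (-1.18, 0.813), Alas2 of erythroid cells (2.19, 0.385) and Itga2b of megakaryocytes (-4.15, 0.359). DESeq2 called Gata2 (adjusted p = 0.000893) and Itga2b (adjusted p = 0.0406) lower in adult LICs and no other gene of these lists.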

How the data were processed

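The 6 libraries came from polyA-selected RNA of sorted LICs, prepared without strand marking and sequenced from one end for 75 bases, per the labels' protocols. The authors deposited unnormalized counts of reads on each gene, obtained with featureCounts 1.5.1 on an mm10 gene annotation, per the file headers. Trimmomatic, Bowtie, TopHat and DESeq2 are also named, per the submitters' processing notes. No exon of the 10 genes overlapped an exon of another gene in the file on either strand.

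Computed here were CPM with TMM scaling and an edgeR 4.0.16 robust quasi-likelihood fit of adult minus neonatal (R 4.3.3, filterByExpr with a minimum count of 10), with Benjamini-Hochberg adjustment over 13272 genes and a threshold of 0.05. A printed SE is approximate, since it was derived from the fold change and its F statistic. All 10 genes passed the filter. CPM per kilobase used the exon length of the file. Ratios were tested with an exact permutation test over libraries. Alternatives were DESeq2 1.42.0, limma 3.58.1 voom with quality weights, other scalings and filters, thinning to 3932833 counts per library, and each library left out. Scripts were tested on simulated data.

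Pirb (Lilrb3) was matched by RefSeq synonym and coordinates, and Cd300c2 (AF251705) by GENCODE coordinates after values were seen. The 10 genes and the 16 related lists were chosen with earlier results of these data known. Of each list the text names up to 3 genes called on 6 libraries and up to 3 called without neonatal replicate 4. Where there were none, the gene with the smallest p is named. Other named genes fall outside this rule, some of them named after values were seen. Among them are Syk, the genes at both loci, Irf8, Tcf4, Fcer1a, Tpsb2, Csf2rb, Vcam1 and Mertk. Further defining markers of cell types and genes with a near profile were also named. Read ambiguity, coding motifs and promoter motifs were computed from GENCODE M21 transcripts and RefSeq promoter windows.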

Additional observations from a re-analysis of the deposited data

How the results depend on the processing

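No paired analysis was possible because the groups share only replicate number 4, and a block needs at least 2 shared numbers. Over all genes edgeR called 7 on 6 libraries, against 759 with DESeq2, 1056 with limma voom, 4 with all libraries thinned, and 1 to 828 with 1 library left out, the 828 being without neonatal replicate 4. DESeq2 without neonatal replicate 4, an alternative chosen after seeing the data, called 3320 (24% of 13856 genes). Of the 10 genes edgeR called 0, DESeq2 2, limma voom 3, DESeq2 without neonatal replicate 4 3, and edgeR 0 to 2 with 1 library left out. Of the related lists together, with 158 genes tested on 6 libraries, edgeR called 0, DESeq2 30 and limma voom 25. The shares over all tested genes were 0.0527%, 5.72% and 7.96%. Of 166 list genes tested without neonatal replicate 4, DESeq2 called 57, against 24% of all tested genes. With 1 library left out edgeR called 0 to 20, the 20 being without neonatal replicate 4, against 5.98% of all tested genes in that fit. The cause of the differences between settings was not tested.

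The sign of 5 of the 10 log2 fold changes, none of them called under any setting, depended on the processing. With limma voom Fcgr3 was at 0.19, Fcer1g at 0.41, Tyrobp at 0.35 and Pirb at -0.20, and with DESeq2 without neonatal replicate 4 they were at 0.22, 0.48, 0.43 and -0.34. Without scaling of library totals Fcer1g was at 0.095. With 1 library left out, Fcgr3 ran between -0.32 and 0.23, Fcer1g between -0.24 and 0.48, Tyrobp between -0.36 and 0.44, Cd300lb between -0.30 and 0.79, and Pirb between -0.34 and 1.53. Fcgr1 had too few counts to be tested after thinning or with the filter of 1 CPM in 3 libraries. No setting moved the median of all genes by more than 0.0997. The depth of neonatal replicate 4 limits Cd300lf, Pirb and Fcgr1, with 10, 9 and 0 counts there.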

Other observations

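Genes whose profile over the 6 libraries was nearest to that of Cd300lf were Mocos, Slfn1 and Zeb1, with root mean square differences of 0.377, 0.454 and 0.464 in centred log2 CPM. Mocos, a molybdenum cofactor sulfurase, was at 4.42, 4.004 and 1.31 CPM in the adult libraries (replicates 1, 2 and 4), against 0.299, 0.425 and 0.682 CPM in the neonatal ones (replicates 4, 7 and 8). Slfn1, of the Schlafen family, was at 1.84, 1.47 and 0.265 CPM in adult LICs, against 0, 0.0142 and 0.163 CPM in neonatal LICs. As with Cd300lf, adult replicate 4 was the lowest adult library for each of these genes. They were picked for their likeness, so the pattern is a description.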
